A study of Mus musculus with 4 samples.

Results

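The genes described here encode the subunits of the proteasome and the factors that assemble, activate or inhibit it. They were taken by symbol, as every gene named Psma to Psmg followed by a number, with the interferon-inducible catalytic subunits Psmb8 and Psmb9 left out, which gave 46 of the 54838 genes listed. The RNA came from Hepa1-6, a mouse hepatocellular carcinoma cell line. NC cells were wild type for Acvr2a, the gene of an activin type II receptor, and KO cells were Acvr2a knockout; the series calls the knockout cells subclones. Each group had 2 libraries, and the labels do not say whether the KO libraries came from separate subclones, so p-values measure the spread between these cultures, which may be technical, and an effect of the knockout cannot be told apart from a difference between subclones. The KO libraries were compared with the NC libraries, for the core particle and the regulatory particle apart.

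The proteasome is the main protease for ubiquitin-tagged proteins in the cytosol and nucleus. Its core particle is a barrel of stacked rings: alpha subunits (Psma genes) form the outer rings and gate the entrance, and beta subunits (Psmb genes) form the inner rings, where Psmb5, Psmb6 and Psmb7 carry the chymotrypsin-like, caspase-like and trypsin-like active sites. The regulatory particle caps the barrel, with a base of ATPases (Psmc genes) and ubiquitin receptors that unfold and feed substrates. Its lid (8 of the Psmd genes) removes ubiquitin, and the other Psmd genes encode base subunits or chaperones of the base. Dedicated chaperones, among them the Psmg proteins, build the rings. When proteasome capacity falls short, the transcription factor Nfe2l1 raises transcription of the subunit genes through antioxidant response elements in their promoters, and Nfe2l2 can act on such elements during oxidative stress.

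Upstream sequence of 3 core genes shows 2 promoter motifs looked for in these genes: TGACNNNGC, the core of the antioxidant response element, and CCAAT, the CCAAT box. Psmb5 and Psmb6 are the core genes whose matched promoters hold TGACNNNGC. Psma1 holds CCAAT on both strands, as do the matched promoters of the core genes Psma3 and Psma6. The sequences are RefSeq's on GRCm38.p6, the 150 bases before the annotated start, 5′ to 3′ on the gene's strand, with motif matches in capitals; ATTGG is CCAAT on the opposite strand. The windows lie at chr14:54617996-54618145, minus strand (Psmb5), chr11:70525207-70525356, plus strand (Psmb6) and chr7:114276117-114276266, minus strand (Psma1).
Psmb5: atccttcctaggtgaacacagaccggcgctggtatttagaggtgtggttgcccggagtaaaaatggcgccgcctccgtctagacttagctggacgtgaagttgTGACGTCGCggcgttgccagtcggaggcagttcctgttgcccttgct
Psmb6: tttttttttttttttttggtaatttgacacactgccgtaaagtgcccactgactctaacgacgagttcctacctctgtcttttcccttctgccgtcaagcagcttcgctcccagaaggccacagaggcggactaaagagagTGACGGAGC
Psma1: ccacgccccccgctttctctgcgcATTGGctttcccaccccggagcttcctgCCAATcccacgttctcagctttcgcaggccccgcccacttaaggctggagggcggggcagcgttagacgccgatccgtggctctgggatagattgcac

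Library totals lay between 11597923 and 13910582 counts. Across the 12510 genes tested, replicates had Pearson's r of 0.989 in each group, and pairs across groups 0.963 to 0.972. Acvr2a RNA was 7.12 and 7.79 CPM in NC and 5.69 and 7.17 CPM in KO, with a log2 fold change (KO minus NC) of -0.21 (SE 0.20, edgeR adjusted p = 0.433), so its RNA level does not distinguish the labels; its exons overlap Orc4. Of 10 hepatocyte and hepatoma markers 9 were above 1 TPM (a level scaled by transcript length and library total) in every library, with Ttr near 0 and sums of 1249 to 1492 TPM, but members of the list moved apart. Afp was 167 and 160.2 TPM in NC and 74.1 and 72.9 TPM in KO (log2 fold change -1.21, edgeR adjusted p = 9.98e-11), Hnf4a 95.1 and 91.6 against 54.5 and 47.5 TPM, and Foxa2 118 and 113 against 61.9 and 67 TPM. Alb was 498 and 473 TPM in NC and 624 and 713 TPM in KO (log2 fold change 0.41, edgeR adjusted p = 0.00224), and Trf 371 and 350.3 against 586 and 547 TPM. The 7 leukocyte markers summed to 24.4 and 28.3 TPM in NC and 56.8 and 68.3 TPM in KO, nearly all from Cd68, with Ptprc at most 0.04 TPM and Cd3e at 0. The 5 fibroblast and stellate markers summed to 1032 to 1234 TPM, nearly all from Dcn, with Col1a1 at most 0.59 TPM and Lrat at 0. The 3 endothelial markers summed to at most 0.48 TPM, with Cdh5 at 0. The 2 erythroid markers summed to 49.4 to 63.5 TPM, nearly all from Hba-a1, with Hbb-bs at most 0.21 TPM. In bulk RNA, more cells of a type and more RNA per cell cannot be told apart, and the part of these marker differences in the results below was not tested.

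Of the 46 genes, 44 were expressed and passed the filter on low counts. Psma8 and Psmb11, subunits of the testis and thymus forms of the proteasome, had 0 counts in all 4 libraries. Within the core particle, mean TPM over the 4 libraries ran from 294 for Psmb3, a non-catalytic beta subunit, to 47.7 for Psma2, an alpha subunit, a ratio of 6.16, although each subunit enters the ring in equal number. Neighbours in that order had overlapping values in 10 of 13 cases; Psmb2 over Psmb4, Psmb6 over Psmb1 and Psmb5 over Psma2 did not overlap. In the regulatory particle the lid subunit Psmd8 was highest, at 243 TPM, and the ATPase Psmc2 lowest, at 39.5 TPM. There the neighbours overlapped in 14 of 16 cases, the exceptions being Psmd8 over Psmd4 and Psmd3 over Psmc4. Outside both particles, the nuclear activator Psme3 was highest at 112 TPM and the base chaperone Psmd10 lowest at 18.2 TPM.

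**Figure D1:**
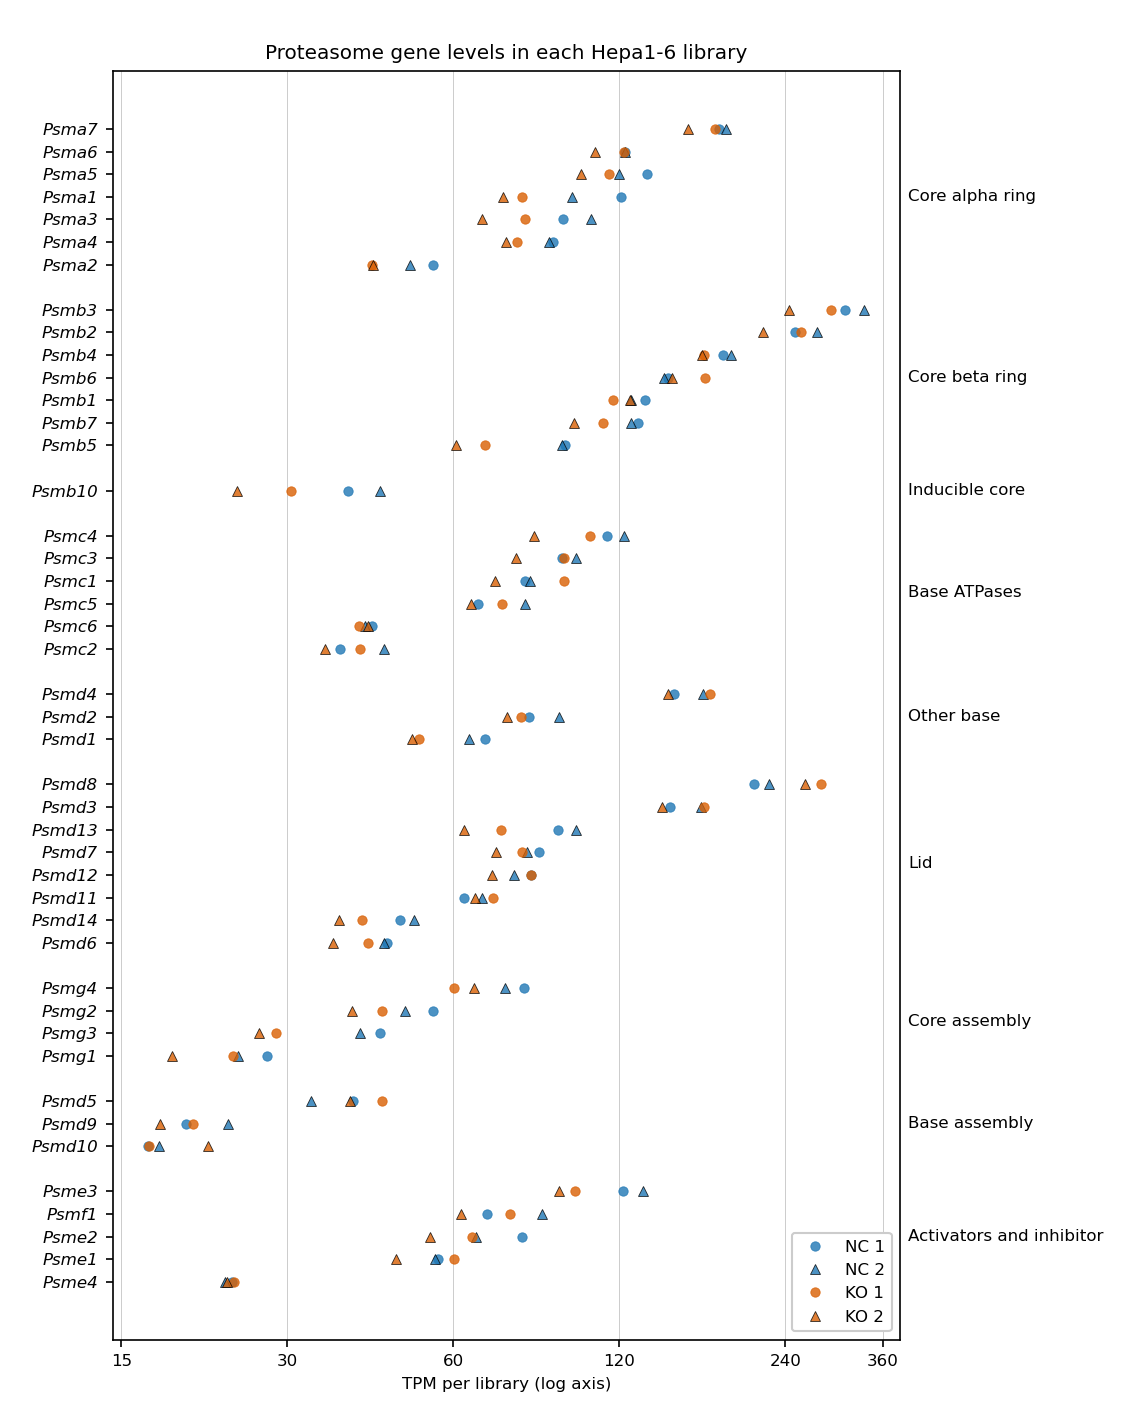
TPM of the 44 expressed proteasome genes (log axis) in NC 1, NC 2, KO 1 and KO 2, grouped by role. Psmb3 and Psmd8 sit at the top of the core and regulatory particles, and both KO marks of Psmd8 lie above both NC marks, the opposite order to most rows.

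Summed over the 14 constitutive core genes, the level was 2048 and 2062 TPM in NC and 1884 and 1696 TPM in KO, or 2055 ± 10.3 and 1790 ± 133 TPM (mean ± SD, n = 2). Both KO sums lay below both NC sums. The alpha ring summed to 801 and 774 TPM in NC and 698 and 630.0 TPM in KO, and the beta ring to 1247 and 1288 TPM in NC and 1186 and 1066 TPM in KO. The 17 regulatory particle genes summed to 1514 and 1614 TPM in NC and 1596 and 1395 TPM in KO, where the groups overlapped. With 2 libraries against 2, an exact two-sided permutation test cannot go below p = 0.33, the value each of the 3 core sums reached, so these sums are given as levels.

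Gene by gene, 21 of the 44 tested members fell in KO and 1, Psmd8, rose, by edgeR's quasi-likelihood test at a Benjamini-Hochberg adjusted p of 0.05 over all genes tested. The 21 are 47.7% of the members, against 18.2% of all genes tested that were lower in KO; for higher in KO the share of all genes was 19.7%, and for either direction 37.9% against 50% of the members. Expression values below are CPM, counts scaled to library totals with edgeR's TMM factors. The CPM values of NC and KO did not overlap, with KO lower, in 32 members, against 34.7% of all genes, and with KO higher in 1, against 34.8%. The median log2 fold change of the members was -0.23, against -0.0037 over all genes, and 40 of 44 members were negative. In limma on log2(TPM + 1), 36 members were negative and their median was -0.17, against 0.060 over all genes. The falls were moderate, between 15.1% and 35.9%. The 22 members that did not pass ran from -0.38 to 0.11.

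**Figure D2:**
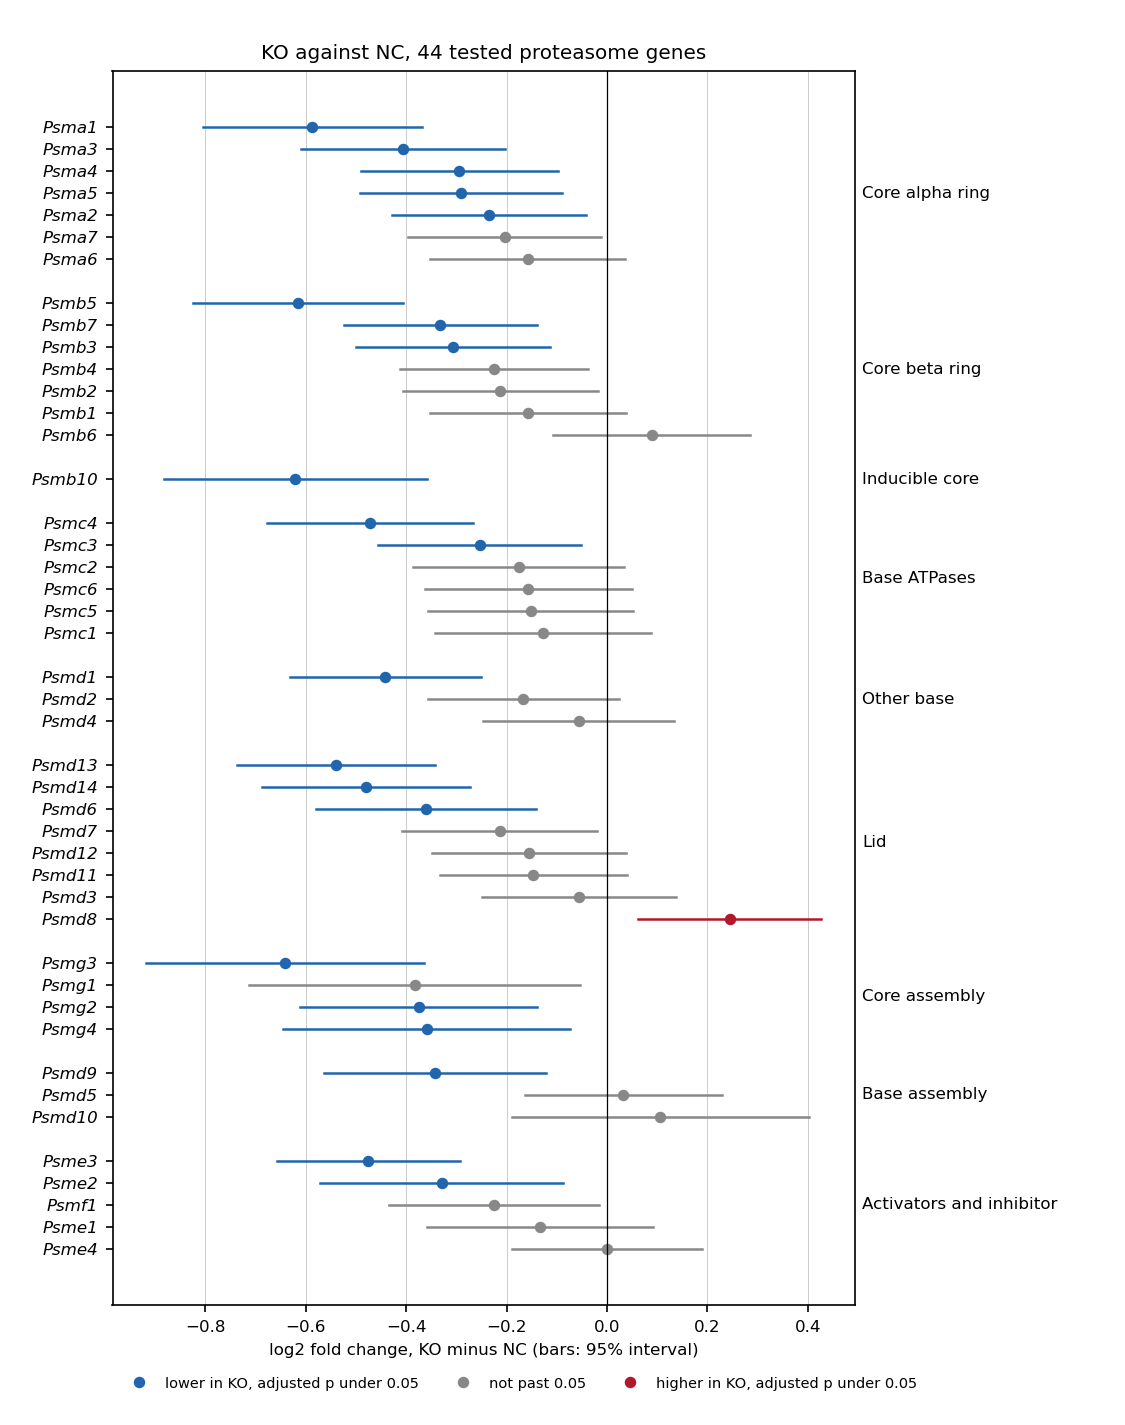
Log2 fold change, KO minus NC, of the 44 tested members with 95% intervals, grouped by role; colour marks members past an adjusted p of 0.05. Most points lie left of 0, from -0.64 for Psmg3 to 0.24 for Psmd8, the single member that rose.

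How many members pass depended on the fit and on single libraries. DESeq2 called 13 lower, all among the 21, against 12.4% of all genes. On the deposited TPM, limma on log2(TPM + 1) called 7 lower (Psma1, Psma3, Psmb5, Psmb10, Psmd13, Psme3 and Psmg3), against 5.52% of all genes. With a pseudocount of 0.1 it also called 7, against 5.37%. With a pseudocount of 1 and genes with low values kept, it called 0 members and also 0 of all 20640 genes. In that fit 14 members were lower at an unadjusted p under 0.05. Over all 20640 genes, 4506 passed that level in either direction. Each of the 21 members outside the 7 named was lost in every limma fit on TPM. Below, counts of alternative fits include these losses, but lists that only name the fits do not repeat them. Without NC 1, 13 were lower, of which 12 were among the 21 and Psmf1 was not, against 13.1% of all genes. Without KO 2, 13 were lower, all among the 21, against 13.8% of all genes. KO 2 was below KO 1 in 35 of 44 members, with a median log2 difference of -0.12.

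Proteasome transcripts are short, with a median effective length of 1082 bases against 2105 over all genes tested, and the libraries differed by transcript length. A smooth trend on length gave a KO minus NC difference of -0.082 on the log2 scale at the members' median length and -0.001 at that of all genes. With the trend removed, 14 members were lower and 2, Psmb6 and Psmd8, were higher, against 19% of all genes lower. Spearman's rho between log2 fold change and length was 0.29 over the 44 members and 0.185 over all genes, a description across genes, which are not independent.

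In the core particle 8 of 14 subunits fell and 0 rose, against 18.2% and 19.7% of all genes, with a median log2 fold change of -0.26. No core subunit was higher at an unadjusted p under 0.05 either, by edgeR or by DESeq2. DESeq2 called 5 lower, or 35.7%, against 12.4% of all genes. Psmb6 was higher after removal of the length trend. The core median was -0.24 without NC 1 and -0.24 without KO 2.

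All 7 alpha ring genes had both KO libraries below both NC libraries, against 34.7% of all genes, and 5 fell, against 18.2%. Psma1 (chromosome 7, 114264606 to 114276118, GENCODE M21 on GRCm38) was 108 and 83.7 CPM in NC and 65.1 and 62.4 CPM in KO. Both KO values lay well below the NC values, a log2 fold change of -0.59 (SE 0.11, edgeR adjusted p = 9.16e-05), or 33.4% lower. Psma3 was 66.7 and 72.1 CPM in NC and 55.1 and 49.8 CPM in KO, with KO 2 the lowest. Its log2 fold change was -0.41 (SE 0.10, edgeR adjusted p = 0.00195).

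The other alpha subunits that fell did so by less. Psma4, whose N-terminal tail helps to close the gate, was 78.8 and 73.1 CPM in NC and 61.8 and 62 CPM in KO, a log2 fold change of -0.29 (SE 0.10, edgeR adjusted p = 0.0164). For Psma5 the values were 127 and 107 CPM in NC and 98.7 and 91.9 CPM in KO, a log2 fold change of -0.29 (SE 0.10, edgeR adjusted p = 0.0206). Neither gene's groups overlapped, but both calls were lost with DESeq2, with the length trend removed and without NC 1, and that of Psma5 also without KO 2. Psma2, the least abundant core subunit, was 92.1 and 84.6 CPM in NC and 73.8 and 76.2 CPM in KO. Its log2 fold change of -0.24 (SE 0.094, edgeR adjusted p = 0.0497) was just past the threshold and was lost in 10 of 12 alternative fits, with adjusted p-values from 0.0464 to 0.308. Psma6 and Psma7 did not pass, at -0.16 (edgeR adjusted p = 0.195) and -0.20 (edgeR adjusted p = 0.0877). Psma4 and Psma5 share exon sequence with a gene on the other strand (AY074887 and 1700010K24Rik), and whether the counting used strand is not given in the sources used here.

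The beta ring was uneven, with 3 of 7 genes lower, against 18.2% of all genes, and the catalytic subunits at both ends of the range. Psmb5 (chromosome 14, 54614119 to 54618022), the chymotrypsin-like subunit and the main target of proteasome inhibitors, was 59 and 55.3 CPM in NC and 38.7 and 35.9 CPM in KO. Each KO library lay far below both NC libraries. The log2 fold change was -0.62 (SE 0.10, edgeR adjusted p = 3.07e-05), 34.7% lower, the lowest p of the core particle. Psmb5 overlaps the microRNA gene Mir686 on its own strand.

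Psmb7, the trypsin-like subunit, was 112 and 103 CPM in NC and 88.5 and 82.2 CPM in KO. KO was lower without overlap, with a log2 fold change of -0.33 (SE 0.094, edgeR adjusted p = 0.00644); the call was lost without NC 1, and Nek6 overlaps the gene on the other strand. Psmb6 (chromosome 11, 70525367 to 70527858), the caspase-like subunit, was 77.1 and 71.6 CPM in NC and 82.6 and 75.4 CPM in KO. KO 1 was the highest library and the groups overlapped, and the log2 fold change of 0.089 (SE 0.10, edgeR adjusted p = 0.495) had an interval of -0.11 to 0.29. Psmb6 was the only core gene with a positive value.

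Among the non-catalytic beta subunits, Psmb3, the most abundant core gene, was 153 and 156 CPM in NC and 133 and 117 CPM in KO. Its log2 fold change was -0.31 (SE 0.094, edgeR adjusted p = 0.0114), and the call was lost without NC 2 or KO 2 and with the length trend removed. Psmb1, Psmb2 and Psmb4 did not pass, with log2 fold changes of -0.16, -0.21 and -0.22 and edgeR adjusted p-values of 0.197, 0.0777 and 0.0534.

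The shares of the 3 catalytic genes in their summed RNA did not overlap between the groups, a measure chosen after the values were seen. Of their summed TPM, Psmb5 took 25.7 and 25.9% in NC and 19.5 and 19.6% in KO. Psmb6 took 39.5 and 39.6% in NC and 48.7 and 48.3% in KO. Psmb7 took 34.8 and 34.5% in NC and 31.9 and 32.1% in KO. Replicates lay much closer together than the groups for Psmb5 and Psmb6, with an exact permutation p of 0.33, the smallest that this design allows. The Psmb6 to Psmb5 ratio was 1.54 and 1.53 in NC and 2.50 and 2.46 in KO. These are shares of RNA, and protein was not measured.

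Psmb10, the inducible replacement of Psmb7 in the immunoproteasome, was 27.3 and 28.5 CPM in NC and 18.7 and 17.6 CPM in KO. Both KO libraries were lower, with a log2 fold change of -0.62 (SE 0.13, edgeR adjusted p = 3.73e-04), 35% lower. The Psmb10 to Psmb7 ratio of TPM was 0.299 and 0.352 in NC and 0.272 and 0.245 in KO. Psmb8 and Psmb9, the other inducible catalytic genes, moved the other way: Psmb8 was 36.3 and 32.8 CPM in NC and 50.3 and 55 CPM in KO, a log2 fold change of 0.61 (SE 0.11, edgeR adjusted p = 5.32e-05), and Psmb9 had a log2 fold change of 0.64 (SE 0.17, edgeR adjusted p = 0.00379). The ratio of Psmb8 to its constitutive counterpart Psmb5, itself lower in KO, was 0.481 and 0.501 in NC and 1.13 and 1.27 in KO. That of Psmb9 to Psmb6 was 0.058 and 0.062 in NC and 0.071 and 0.109 in KO. Results of the alternative fits were not examined for Psmb8 and Psmb9. Gm20496 overlaps Psmb8, and Tap1 overlaps Psmb9, on the other strand.

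**Figure D3:**
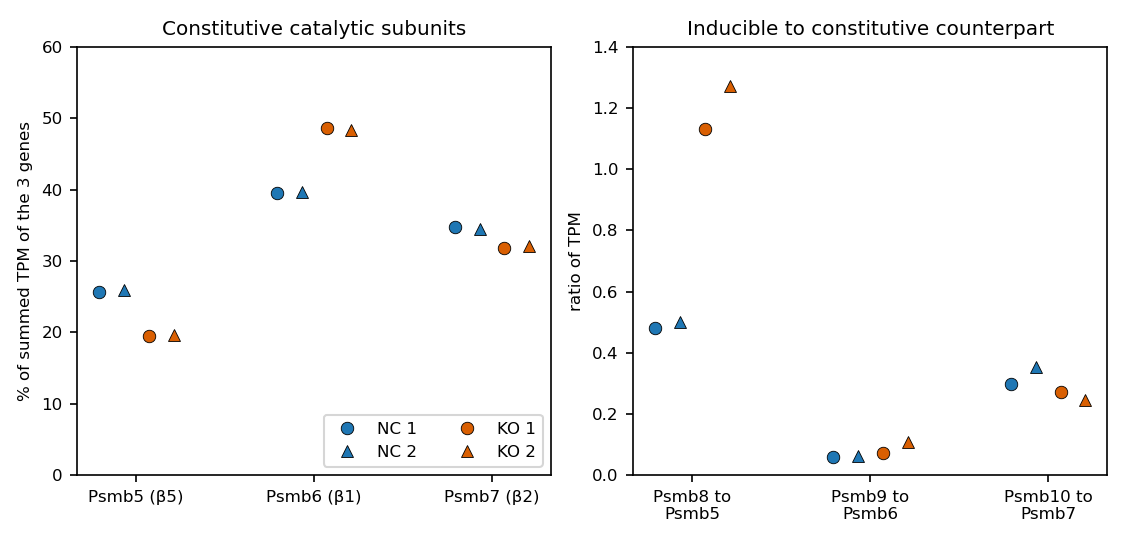
Left, percent of the summed TPM of Psmb5, Psmb6 and Psmb7 taken by each gene in each library; right, ratio of TPM of each inducible subunit to its constitutive counterpart. Psmb5 takes 25.7% and 25.9% of the NC sums but 19.5% and 19.6% of the KO sums, while the Psmb8 to Psmb5 ratio passes 1 in both KO libraries.

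In the regulatory particle 6 of 17 genes fell and 1 rose, against 18.2% and 19.7% of all genes, with a median log2 fold change of -0.17. That median was -0.25 without KO 1, -0.11 without KO 2 and -0.11 in limma on log2(TPM + 1), where the median over all genes was 0.060. The length trend, KO minus NC, was -0.11 at the core particle's median length and -0.055 at the regulatory particle's. With the trend removed, the medians were -0.18 for the core and -0.16 for the regulatory particle. Each then had 5 genes lower and 1 higher, against 19% of all genes lower. The limma fit called 1 of 17 lower, or 5.88%, near the 5.52% of all genes, and 0 higher, with 1 higher at an unadjusted p under 0.05. All 6 ATPase genes had negative values, although Psmc1 was positive in limma on TPM and without KO 2, and 2 fell. Psmc4 was 118 and 125 CPM in NC and 96.5 and 79.1 CPM in KO, with KO 2 the lowest and no overlap. Its log2 fold change was -0.47 (SE 0.10, edgeR adjusted p = 4.96e-04).

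Psmc3 was 87.1 and 86.1 CPM in NC and 78.9 and 66.4 CPM in KO, a log2 fold change of -0.25 (SE 0.10, edgeR adjusted p = 0.0433). The call was lost in 8 of 12 alternative fits, including those without NC 1, NC 2 or KO 2, and Slc39a13 overlaps the gene on the other strand. Psmc2, the least abundant regulatory gene, was 54.2 and 62 CPM in NC and 54.1 and 49 CPM in KO and did not pass (-0.18, SE 0.10, edgeR adjusted p = 0.182). The ATPases that did not pass ranged from -0.18 to -0.13. Of the other base subunits, Psmd1, a large scaffold, was 179 and 162 CPM in NC and 124 and 127 CPM in KO. Both KO libraries were lower, with a log2 fold change of -0.44 (SE 0.093, edgeR adjusted p = 4.70e-04), and the gene shares exons with Gm21972 on its strand and Htr2b on the other. Psmd2, the companion scaffold, and the ubiquitin receptor Psmd4 did not pass, at -0.17 (edgeR adjusted p = 0.161) and -0.057 (edgeR adjusted p = 0.666).

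The lid held the clearest opposite pair. Psmd13, a structural lid subunit, was 110.3 and 105 CPM in NC and 79.3 and 69 CPM in KO. KO lay below NC in both libraries, a log2 fold change of -0.54 (SE 0.10, edgeR adjusted p = 7.67e-05), the lowest p of the regulatory particle; Sirt3 overlaps the gene on the other strand. Psmd8 (chromosome 7, 29174188 to 29180701) was 227 and 228 CPM in NC and 274 and 265 CPM in KO. Both KO libraries were higher, with a log2 fold change of 0.24 (SE 0.089, edgeR adjusted p = 0.0316), but the call was lost in 7 of 12 alternative fits, among them those without NC 1, NC 2 or KO 1. Psmd8 made up 13.9 and 13.8% of the summed regulatory particle TPM in NC and 17.4 and 18.6% in KO.

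Psmd14, the metalloprotease that cleaves ubiquitin chains off substrates, was 57.5 and 55.4 CPM in NC and 42.2 and 38.7 CPM in KO. The groups did not overlap, and the log2 fold change was -0.48 (SE 0.10, edgeR adjusted p = 4.77e-04). Psmd6, another structural lid subunit, was 48.4 and 45.4 CPM in NC and 38.8 and 34.2 CPM in KO, with KO lower without overlap and a log2 fold change of -0.36 (SE 0.11, edgeR adjusted p = 0.00881). Its call was lost without NC 1 or KO 2. Psmd3, Psmd7, Psmd11 and Psmd12 did not pass, with log2 fold changes from -0.21 to -0.055.

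The core assembly factors Psmg1 to Psmg4 pair up to build the alpha ring. All 4 were lower in both KO libraries, against 34.7% of all genes, and 3 of 4 fell, against 18.2%. Their median was -0.38 on the log2 scale. Psmg3 (chromosome 5, 139823592 to 139826885) was 26.4 and 22.9 CPM in NC and 15.8 and 15.8 CPM in KO. Its KO values lay well below NC, and its log2 fold change of -0.64 (SE 0.14, edgeR adjusted p = 4.71e-04), 35.9% lower, was the most negative of all members. Psmg4, its partner, was 21.7 and 19.2 CPM in NC and 15 and 16.8 CPM in KO, a log2 fold change of -0.36 (SE 0.14, edgeR adjusted p = 0.0432) that was lost in 8 of 12 alternative fits, among them DESeq2 and those without NC 1, NC 2 or KO 1. Psmg3 shares exons with Gm26938 on its strand and had counts that were not whole, as did Psmb7, Psmd1, Psmd11 and Psmd13.

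Psmg2 was 42.4 and 35.8 CPM in NC and 31.3 and 28.8 CPM in KO, a log2 fold change of -0.38 (SE 0.12, edgeR adjusted p = 0.0112); the call was lost with DESeq2, with the length trend removed and without NC 1 or KO 2. Psmg1, which pairs with Psmg2, was 16.4 and 13.8 CPM in NC and 12.9 and 10.2 CPM in KO and did not pass (-0.38, SE 0.16, edgeR adjusted p = 0.0607). Summed TPM of the 4 genes was 207 and 188 in NC and 157 and 149.8 in KO. Of the chaperones of the base, Psmd9 was 42.8 and 49.3 CPM in NC and 37.8 and 34.9 CPM in KO, a log2 fold change of -0.34 (SE 0.11, edgeR adjusted p = 0.0135) that was lost with DESeq2 and without NC 2 or KO 2; Gm26745 overlaps it on the other strand. Psmd5 and Psmd10 had overlapping groups, at 0.033 (edgeR adjusted p = 0.822) and 0.11 (edgeR adjusted p = 0.597).

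Alternative caps bind the core in place of the regulatory particle. Psme3, the nuclear activator, was 274 and 283 CPM in NC and 202 and 199 CPM in KO. Each KO library was lower, with a log2 fold change of -0.48 (SE 0.089, edgeR adjusted p = 1.40e-04). Psme2, which forms the interferon-inducible activator with Psme1, was 51.6 and 39.6 CPM in NC and 38.4 and 33.9 CPM in KO, a log2 fold change of -0.33 (SE 0.12, edgeR adjusted p = 0.0291) that was lost with DESeq2, with the length trend removed and without NC 1 or KO 2. Psme1 did not pass (-0.13, SE 0.11, edgeR adjusted p = 0.356), nor did the activator Psme4 (an interval of -0.19 to 0.19) or the inhibitor Psmf1 (-0.22, SE 0.10, edgeR adjusted p = 0.0830).

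In edgeR, 10 members were lower with all libraries and with each of the 4 left out in turn, against 8.66% of all genes tested: Psma1, Psma3, Psmb5, Psmb10, Psmc4, Psmd1, Psmd13, Psmd14, Psme3 and Psmg3. They include subunits of the core and the regulatory particle, an assembly factor and an activator. Of these 10, Psmc4, Psmd1 and Psmd14 did not pass in limma on log2(TPM + 1), with adjusted p-values of 0.128, 0.0520 and 0.0811.

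RefSeq promoters, taken as 250 bases before to 50 bases after the start and searched on both strands, were matched for 38 of the 46 genes. TGACNNNGC was in 6 of 38 (15.8%), against 14% of 27025 genes. These were Psmb5, Psmb6, Psmc6, Psmd9, Psmd12 and Psme4. In Psmb5 it reads TGACGTCGC and begins 47 bases before the start; in Psmb6 it reads TGACGGAGC and begins 9 bases before it, as in the sequences above. Psmb5 fell and Psmb6 did not pass. Of the members that fell, 2 of 18 matched promoters held it, and of those tested without passing, 4 of 18. CCAAT was in 13 of 38 (34.2%), against 41.1% of all promoters, in 6 of 11 promoters of the core particle, 4 of 14 of the regulatory particle and 3 of 13 outside both, and in 6 of 18 each of the members that fell and of those that did not pass. In Psma1 it begins 126 bases (opposite strand) and 98 bases before the start.

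Of 30 listed partner genes of the proteasome, 29 were found and tested; 9 fell and 0 rose, against 18.2% and 19.7% of all genes, with a median log2 fold change of -0.15. None was higher at an unadjusted p under 0.05 by edgeR. Of the 9, limma on log2(TPM + 1) called Uchl5 and Nfe2l2 lower, among those named here. Among proteins of the particle that the symbol rule leaves out, 4 of 9 fell. Usp14, a deubiquitinase bound to the base, was 106 and 109.6 CPM in NC and 71.4 and 70.0 CPM in KO, a log2 fold change of -0.61 (SE 0.093, edgeR adjusted p = 1.03e-05). Uchl5, the other base-bound deubiquitinase, was 32.2 and 28.1 CPM in NC and 21.4 and 20.6 CPM in KO, a log2 fold change of -0.52 (SE 0.13, edgeR adjusted p = 0.00175). Neither gene's groups overlapped; Usp14 shares exon sequence with Thoc1.

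Adrm1, the ubiquitin receptor that recruits Uchl5, was 232 and 214 CPM in NC and 186 and 161 CPM in KO, a log2 fold change of -0.36 (SE 0.10, edgeR adjusted p = 0.00362) that was lost without KO 2. Txnl1, a thioredoxin-like protein of the regulatory particle, had -0.29 (SE 0.09, edgeR adjusted p = 0.0137), lost without NC 1 or KO 2. Pomp, the chaperone that completes the core, did not pass (-0.092, SE 0.091, edgeR adjusted p = 0.454). Ubqln4, one of the shuttle factors that carry ubiquitinated proteins to the particle, fell, with a log2 fold change of -0.25 (SE 0.092, edgeR adjusted p = 0.0341). Of the unfoldase genes 2 of 5 fell, against 18.2% of all genes. They were the ATPase Vcp (-0.32, SE 0.095, edgeR adjusted p = 0.00971) and its cofactor Nploc4 (-0.34, SE 0.10, edgeR adjusted p = 0.00636). The calls of Ubqln4, Vcp and Nploc4 were lost without KO 2, those of Ubqln4 and Vcp also without NC 2.

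Of the 6 ubiquitin and E1 genes, edgeR and DESeq2 each called 0. Over all genes tested, edgeR called 37.9% in either direction and DESeq2 called 3217 of 12510. The 1 gene of the 6 at an unadjusted p under 0.05 in edgeR was Uba1, the main ubiquitin-activating enzyme (-0.20, SE 0.093, edgeR adjusted p = 0.0965). Among the genes of the transcriptional feedback, Nfe2l2 was 224 and 219 CPM in NC and 157 and 154 CPM in KO. Both KO libraries were lower, with a log2 fold change of -0.51 (SE 0.09, edgeR adjusted p = 7.10e-05). Nfe2l1 was 162 and 182 CPM in NC and 189 and 193 CPM in KO, higher in both KO libraries, but its log2 fold change of 0.15 (SE 0.093, edgeR adjusted p = 0.197) did not pass.

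**Figure D4:**
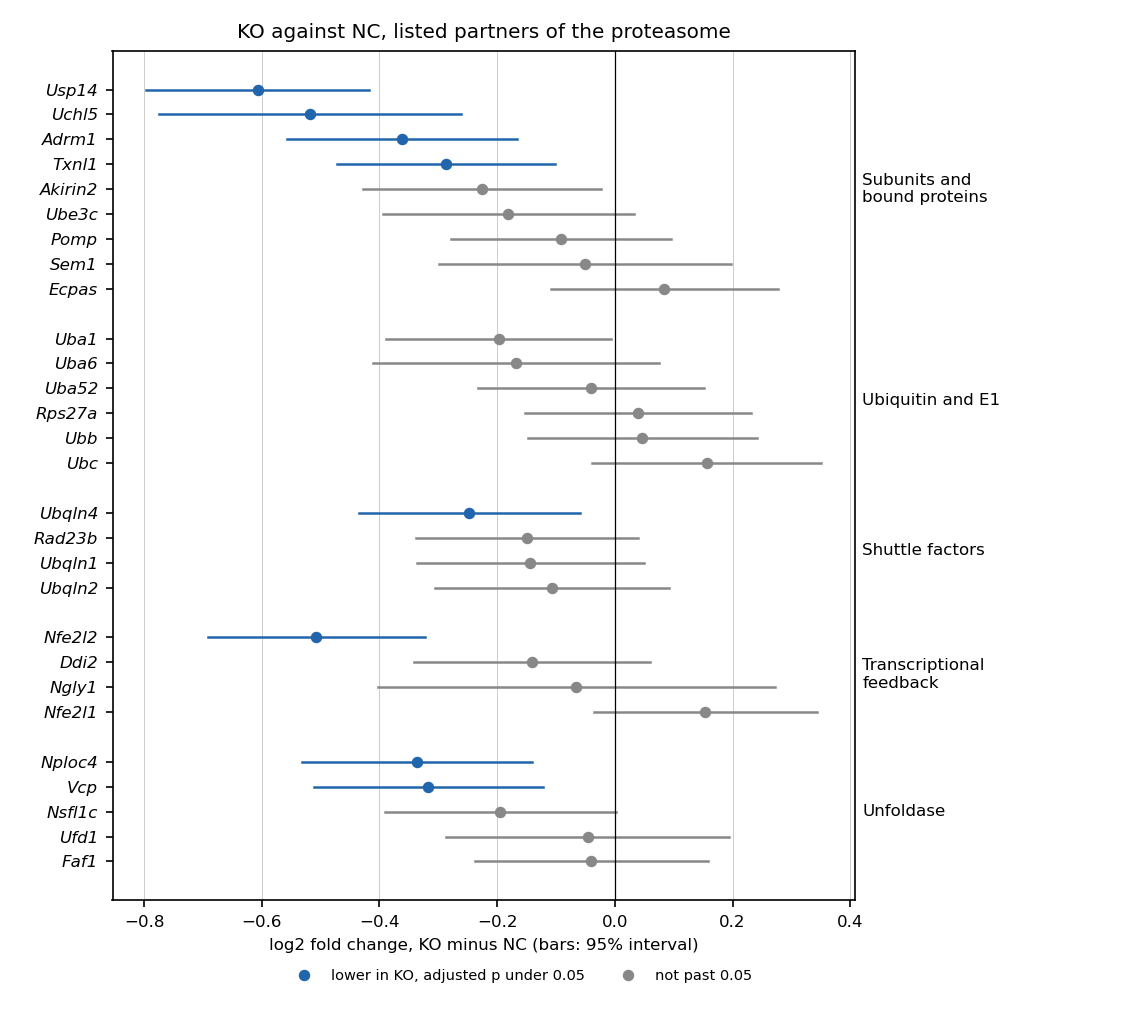
Log2 fold change, KO minus NC, of 28 listed partner genes with 95% intervals, grouped by role; colour marks genes past an adjusted p of 0.05. The 8 of them that fell lie in 4 of the 5 groups, and the 6 ubiquitin and E1 genes spread on both sides of 0.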

How the data were processed

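RNA-seq of total RNA was made with a directional kit, per the labels' protocols. STAR, RSEM, DESeq2 and FastQC and the builds GRCm38 and mm10 are named in the submitters' processing notes, with no versions or roles. The deposited files give, per gene and sample, the authors' expected counts (estimated, not normalised), per the file headers. They also give the authors' TPM values, scaled by effective length and library total, and FPKM values, which the authors deposited but which were not used here. Effective length, in bases, is the authors' value.

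Expected counts were rounded, filtered with filterByExpr (12510 genes kept), scaled by TMM and compared with edgeR 4.0.16 (R 4.3.3), glmQLFit and glmQLFTest, group only, two-sided, with Benjamini-Hochberg adjustment over all genes tested. Standard errors come from the fitted weights and the moderated dispersion; intervals are 95% and cover these cultures only. Alternatives were DESeq2 1.42.0, RLE factors, no filter, limma 3.58.1 on log2(TPM + 1) and log2(TPM + 0.1), removal of the length trend, a replicate block, and each library left out. RSEM can share reads between similar genes. Coordinates and overlaps come from GENCODE M21, matched by ID for all 46 members, and promoters from RefSeq on GRCm38.p6. The fits were also run on simulated counts with a fixed dispersion, as a check of the code. That check does not show how well falls of the size reported here are called in these libraries.

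Members and lists were chosen with earlier results of these data known. Full statistics are given for Acvr2a, each member past 0.05, the member of each class with the lowest p, the most and least abundant subunit of each particle, and up to 4 partners per list past 0.05; other genes were named after their values were seen. A few results that the rule covers are left unreported here. Paaf1 and the promoters of 8 members were not analysed here. Same-numbered libraries did not deviate together (r = -0.0116), so replicate numbers were not treated as pairs.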

Additional observations from a re-analysis of the deposited data

How the results depend on the processing

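With 2 libraries per group, tests rest on spread shared across genes, and single libraries mattered. Against 21 members lower and 1 higher, DESeq2 gave 13 lower, where 12.4% of all genes were lower. Limma on log2(TPM + 1) and on log2(TPM + 0.1) gave 7 lower and 0 higher each, where 5.52% and 5.37% of all genes were lower. Limma without a filter gave 0 and 0 (14 lower and 1 higher at an unadjusted p under 0.05), and it called 0 of all 20640 genes. No filter on low counts gave 0 higher, and removal of the length trend 2 higher. Leaving out each library gave 13 to 25 lower and 0 to 1 higher, while the share of all genes called lower was 13.1%, 13.8%, 17.1% and 13.8% without NC 1, NC 2, KO 1 and KO 2. For the core particle, DESeq2 gave 5 lower, limma on TPM 3, 3 and 0, removal of the length trend 5 lower and 1 higher with a median of -0.18, and leaving out each library 4 to 10 lower with medians of -0.30 to -0.24. For the regulatory particle, limma on TPM gave 1, 1 and 0 lower, each with 0 higher, no filter 0 higher, and leaving out each library 4 to 7 lower, 0 to 1 higher and medians of -0.25 to -0.11. The replicate block gave 22 members lower and 1 higher, and 8 core subunits lower; the numbers do not pair the samples. With limma on TPM the called genes were 68% higher in KO, against 51.9% in edgeR.

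Among Acvr2a, the members and the named partners, signs changed only for genes that did not pass in edgeR with all libraries. Psme4 was 0.00032 with DESeq2, 0.00034 with RLE factors and 0.011, 0.012 and 0.011 with limma on TPM. Psmc1 was 0.010 in those 3 limma fits, Psmd11 0.063, 0.064 and 0.063, and Psmd4 0.0034, 0.0034 and 0.0034. Over all genes, the median log2 fold changes of those 3 limma fits were 0.060, 0.070 and 0.037. With the length trend removed Psmd4 was 0.025 and Pomp 0.055. Leaving out each library gave ranges of -0.036 to 0.041 for Psme4, -0.33 to 0.051 for Psmc1, -0.12 to 0.30 for Psmd10, -0.014 to 0.085 for Psmd5, -0.15 to 0.037 for Psmd3 and -0.13 to 0.016 for Psmd4. The cause of each change was not tested.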
